A study of Mus musculus with 2 samples.

Results

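Oxidative phosphorylation is the set of protein complexes of the inner mitochondrial membrane that pass electrons from NADH and succinate to oxygen and use the resulting proton gradient to make ATP. Complex I (NADH dehydrogenase) and complex II (succinate dehydrogenase) feed electrons to ubiquinone, complex III passes them to the mobile carrier cytochrome c, complex IV (cytochrome c oxidase) reduces oxygen, and complex V (ATP synthase) makes ATP. Most subunits are encoded in the nucleus and a small set in the mitochondrial genome, and several nuclear subunits of complex IV exist as isoforms that differ between tissues. Pluripotent stem cells are known for relying strongly on glycolysis while keeping a working respiratory chain.

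The genes described here are the protein-coding genes whose symbol in the GENCODE M21 annotation begins with Nduf, Uqcr, Atp5 or Cox followed by a digit, together with Sdha, Sdhb, Sdhc, Sdhd, Cyc1, Cycs and Cyct. The rule found 106 gene identifiers with 105 distinct symbols (Atp5o is carried by 2 identifiers) among 21976 protein-coding genes and 55421 genes of the count table. It uses names only and no measured value, though it was set with earlier results of these data known. A further 14 symbols that fit the name patterns were not protein coding, 13 of them processed pseudogenes, and were left out. By role, 89 members were structural subunits and 17 were assembly factors, which help to build complexes I and IV without being part of them.

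The study profiled polyA RNA from E14 mouse embryonic stem cells, a blastocyst-derived line of 129/Ola background, grown with serum and LIF on gelatin. The only group, Ago1 KO, carries a knockout of Ago1, an Argonaute protein that binds microRNAs, and was sequenced in duplicate as libraries KO2 and KO1. No library with intact Ago1 was analysed here, so no effect of the knockout on any gene can be read from these values. The labels do not say whether the duplicates are separate clones or cultures, and their spread may be technical. The deposited table holds 54408708 counts for KO2 and 57048330 for KO1. Ago1 itself had 452 counts in KO2 and 1497 in KO1, and the ratio was 0.31 (95% counting interval 0.28 to 0.35). Gene counts do not show where in Ago1 the reads lie, so they do not check the knockout. The stem cell markers Pou5f1, Nanog, Sox2, Zfp42 and Esrrb were detected in both libraries, between 297 and 1170 counts per 1000000 (CPM) in KO2 and between 321 and 781 CPM in KO1.

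Ubiquitous and testis-type isoforms of cytochrome c and of complex IV subunit 6b were both present in these cells, and their promoters are shown here because the results on isoforms below turn on these 4 genes. The sequences are RefSeq promoters on build GRCm38.p6, from 250 bases before to 50 bases after the gene's start, written 5′ to 3′ on the gene's own strand. Capitals mark a match to a motif searched on both strands, GCGCATGC for the core of the NRF1 site in Cycs and CCGGAAG for the ETS site bound by GABPA in Cox6b1. Both matches lie on the strand opposite the gene, so the capitals read GCATGCGC and CTTCCGG, and matches to the SP1 motif are left in lower case. NRF1 and GABPA are transcription factors known for activating respiratory chain genes. The windows lie on the minus strand at chr6:50566520-50566819 for Cycs, chr2:76360404-76360703 for Cyct, chr7:30626065-30626364 for Cox6b1 and chr7:4753045-4753344 for Cox6b2.
Cycs: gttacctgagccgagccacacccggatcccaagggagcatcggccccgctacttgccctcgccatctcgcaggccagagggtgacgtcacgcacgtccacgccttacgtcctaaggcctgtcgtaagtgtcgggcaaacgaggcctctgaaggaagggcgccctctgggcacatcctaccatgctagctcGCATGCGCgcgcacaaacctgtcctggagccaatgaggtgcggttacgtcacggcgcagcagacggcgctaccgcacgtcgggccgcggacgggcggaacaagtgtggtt
Cyct: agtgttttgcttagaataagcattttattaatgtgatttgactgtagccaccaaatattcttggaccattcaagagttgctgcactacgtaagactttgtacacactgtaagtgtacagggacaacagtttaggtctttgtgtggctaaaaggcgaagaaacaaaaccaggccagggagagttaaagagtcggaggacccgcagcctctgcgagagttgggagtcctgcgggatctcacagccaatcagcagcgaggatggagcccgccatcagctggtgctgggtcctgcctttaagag
Cox6b1: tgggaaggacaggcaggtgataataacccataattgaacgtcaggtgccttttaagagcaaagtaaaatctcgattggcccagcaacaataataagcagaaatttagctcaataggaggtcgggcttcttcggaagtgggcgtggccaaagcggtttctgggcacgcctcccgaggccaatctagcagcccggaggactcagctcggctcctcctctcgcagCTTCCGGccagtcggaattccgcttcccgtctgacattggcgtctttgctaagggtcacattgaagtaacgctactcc
Cox6b2: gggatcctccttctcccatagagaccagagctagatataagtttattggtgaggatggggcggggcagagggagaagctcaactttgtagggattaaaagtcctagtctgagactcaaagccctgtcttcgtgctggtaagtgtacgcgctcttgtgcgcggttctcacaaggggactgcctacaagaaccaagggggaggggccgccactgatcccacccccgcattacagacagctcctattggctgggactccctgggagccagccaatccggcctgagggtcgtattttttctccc
The Cycs promoter held 32 CpG dinucleotides and the Cyct promoter 8. The Cox6b1 promoter held 17 and the Cox6b2 promoter 10. Neither testis-type promoter held a match to the NRF1, ETS, YY1 or ERR motif in this window. Among general forms of other complex IV pairs, Cox6a1 and Cox8a held such a match, and Cox7a2, Cox7b and Ndufa4 did not. The absence of a match was thus not particular to the testis types.

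Promoters of 85 of the 105 symbols were matched. The NRF1 core GCGCATGC was in 13 of them (15.3%), against 3.94% of 17492 protein-coding genes with a promoter of the same length. The 13 were Cycs, Sdhb, Ndufa6, Ndufa8, Ndufa11, Ndufaf4, Ndufaf5, Uqcrc1, Uqcr11, Cox6a1, Atp5g2, Atp5k and Atp5l, which span every complex and the electron carrier. The ETS motif CCGGAAG was in 23 members (27.1%), against 12.9% of all genes. The YY1 motif AAGATGGCG was in 9 members (10.6%), against 2.14%. The ERR motif TCAAGGTCA was in 2 members, Sdhd and Atp5g3 (2.35%), against 0.377%. The SP1 motif GGGCGG was in 41 members (48.2%), against 49.2%. No motif of the set is contained in another, and a match is a description of the letters, not a bound site. The median member promoter held 20 CpG dinucleotides, against 15 over all genes.

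A start site within 1000 bases of the start of a protein-coding gene on the opposite strand was found for 37.0% of the detected members and 16.1% of all detected protein-coding genes. By role the share of members ran from 0 of 2 cytochrome c genes and 2 of 20 structural complex IV genes to 3 of 4 complex II genes. Examples are Ndufs1 beside Eef1b2, Ndufs3 beside Kbtbd4, Ndufs6 beside Mrpl36, Sdhd beside Timm8b and Ndufa7 beside Rps28. Members lay on 19 chromosomes, with 9 each on chromosomes 2 and 7 and 3 on X. Their principal transcripts were short, with a median of 891.5 bases for detected members against 2987 bases for detected protein-coding genes.

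Of the 106 members, 100 were detected, meaning at least 1 CPM in both libraries, against 55.3% of all protein-coding genes. The 6 not detected were the isoforms Cox6a2, Cox7b2, Cox8b and Cox8c, the assembly factor Cox16 and the second Atp5o identifier. Together the members took 1.24% of the counts in KO2 and 1.15% in KO1, or 12323 and 11586 CPM. The 13 protein-coding genes of the mitochondrial genome took 24060 CPM in KO2 and 29222 CPM in KO1, with log2 ratios of KO2 over KO1 between -0.40 and -0.09. Levels of different genes are compared per length, as CPM per kilobase of the union of annotated exons (CPM per kb). The median structural subunit stood at 48.8 CPM per kb in KO2 and 39.6 in KO1, the median assembly factor at 7.84 and 7.92, and the median detected protein-coding gene at 6.02 and 5.57. Above that last median lay 81 of 89 structural members in KO2 and 79 in KO1, and 14 of 17 assembly factors in KO2 and 12 in KO1. The exon union includes retained introns and long alternative ends, and it was more than 1.5 times the annotated principal transcript for 52 of the 106 members. Levels on the principal transcript are given beside those on the exon union for some of these members.

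**Figure D1:**
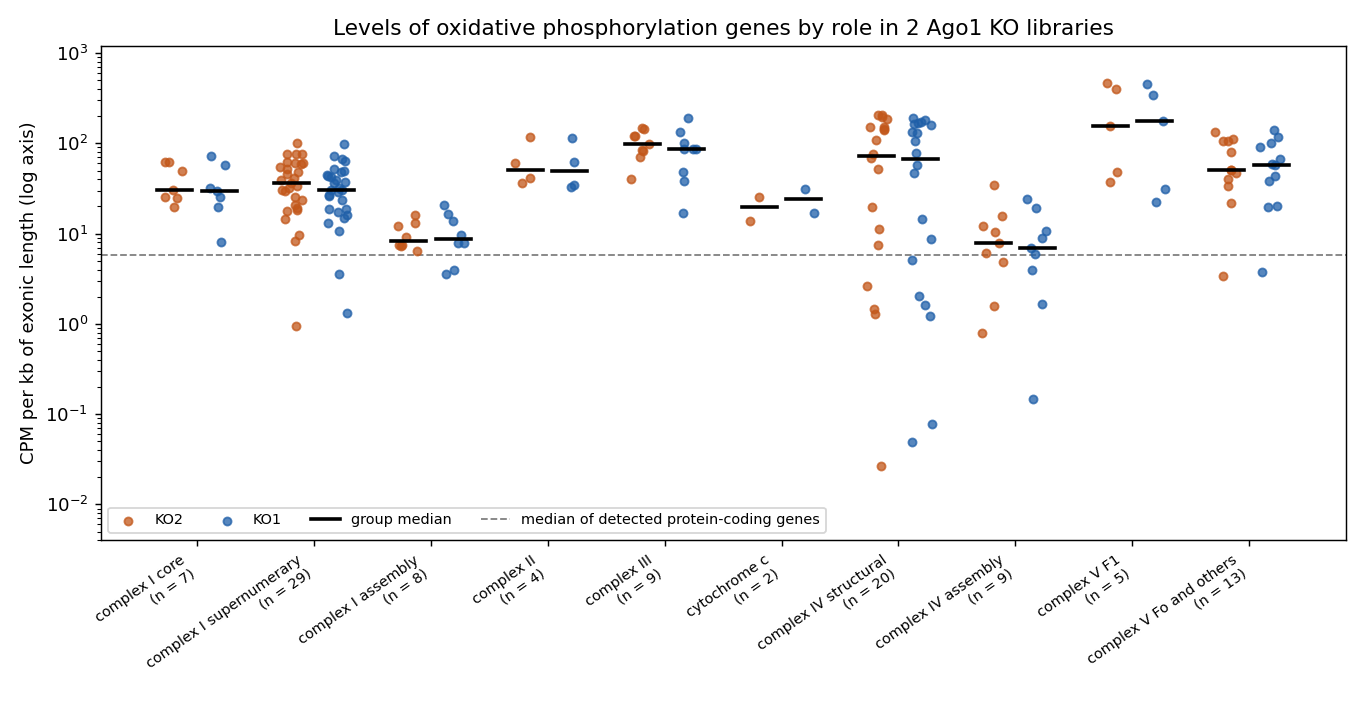
CPM per kb of exonic length (log axis) of each member in KO2 (orange, left) and KO1 (blue, right) by role, with black bars for group medians and a dashed line for the median of all detected protein-coding genes. By group median, the F1 subunits of complex V stand highest, at 157.5 and 176.4, and the medians of both assembly groups lie near the dashed line. A value of 0 is not drawn (Cox8b in KO2 and the second Atp5o identifier in both libraries).

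By role, the mean of the library medians was highest for the F1 part of complex V at 167 ± 13.3 CPM per kb (SD, n = 2 libraries here and throughout). Complex III followed at 93.4 ± 8.34, complex IV at 70.0 ± 3.38, the Fo part of complex V at 54.4 ± 4.65 and complex II at 49.9 ± 1.51. The complex IV median covers 20 members, 4 of them not detected. It includes the minor isoforms described below, and its place below complex III rests on counting them. The Fo part here means all 13 complex V identifiers outside F1. Among them are Atp5s and the second Atp5o identifier, which had 0 counts in both libraries. Supernumerary subunits of complex I stood at 33.4 ± 4.0, core subunits of complex I at 30.2 ± 0.32 and the cytochrome c genes at 21.97 ± 3.28. Assembly factors of complex I stood at 8.55 ± 0.34 and of complex IV at 7.40 ± 0.63. The SD is the spread of 2 library medians and does not cover the spread of genes within a role. For F1 the members ran from 34.2 to 456 by mean level. The order given is thus one of medians only. The Fo part and complex II overlapped within 1 SD, as did the supernumerary and core groups of complex I, so the order of their medians is not resolved either. On principal transcripts the Fo part moved to 202 ± 28.5, complex III to 144 ± 34.5 and core complex I to 63.8 ± 15.7. The Fo part and complex III overlapped within 1 SD on that length, so the order of their medians is not resolved there. By median, the F1 part stayed at the top and the assembly groups at the bottom on both lengths.

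The nuclear-encoded core subunits of complex I are conserved from bacteria and carry its flavin and iron-sulfur clusters. All 7 of these nuclear-encoded core subunits were detected. Ndufv2, which holds an iron-sulfur cluster of the NADH-oxidising module, stood at 61.7 CPM per kb in KO2 and 72.3 in KO1. By mean level the lowest were Ndufs7, at 19.8 in KO2 and 8.06 in KO1, and Ndufs8, at 30.4 and 19.9, which in KO2 lay above Ndufs1 and Ndufs3. Ndufs7 and Ndufs8 carry iron-sulfur clusters close to ubiquinone. Of the 7 core subunits 5 were higher in KO2, among them Ndufs7, Ndufs8 and Ndufv1, with log2 ratios of 1.30, 0.61 and 0.59. Ndufv1, Ndufs1 and Ndufs3 lay between 24.7 and 48.8 in KO2 and between 25.3 and 32.4 in KO1. Ndufs1, the largest core subunit, depended on the length used and stood at 74.9 and 91.1 on its principal transcript.

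Supernumerary subunits surround the core and are needed for its assembly or stability. All 29 were detected, and 27 of them lay between 9.78 and 102 CPM per kb in KO2 and between 10.6 and 98.9 in KO1. Ndufb6, in the membrane arm, was the highest on the exon union at 102 in KO2 and 98.9 in KO1. On principal transcripts Ndufa7, at 167 and 99.5, and Ndufa6, at 126 and 115, stood above it, and Ndufb5 and Ndufb8 stood at 83.2 and 84.9 in KO2 and at 86.4 and 60.9 in KO1. The X-linked Ndufa1 stood at 75.3 and 73.0, and the X-linked Ndufb11 at 77.1 and 67.5. For these 3 membrane-arm subunits the log2 ratios of KO2 over KO1 were 0.04, 0.04 and 0.19. Ndufa9, which binds NADPH near the junction of the arms, stood at 60.2 in KO2 and 63.1 in KO1. Ndufs4 and Ndufs6, both of the peripheral arm, stood at 25.3 and 62.8 in KO2 and at 30.6 and 49.4 in KO1. Ndufab1, the mitochondrial acyl carrier protein, stood at 9.78 and 10.6. Among the supernumerary members that were not called, Ndufa11 was the least even, at 58.9 in KO2 and 30.3 in KO1. Ndufa13 stood at 29.7 and 17.2, and Ndufa2 at 75.3 and 44.2. These 3 were higher in KO2, as were 20 of the 29 supernumerary members. The lowest on the exon union were Ndufb7, at 8.36 in KO2 and 3.58 in KO1, and Ndufb2, at 0.94 and 1.33. On the principal transcript Ndufb7 stood at 60.7 and 26.0, while Ndufb2, with 289 and 426 counts, remained low at 1.21 and 1.72. Ndufs5, a small membrane-arm subunit, had 979 counts in KO2 and 924 in KO1, and a processed pseudogene that matches it over most of its length had 1028 and 854. Which of the 2 loci gave those reads cannot be told apart from gene counts, so the level of Ndufs5 is uncertain. Another 12 members had a pseudogene copy of at least 95% identity over at least 50% of their transcript, but the summed counts of those copies reached at most 4.77% of the member's own in KO2 and 6.89% in KO1.

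All 8 assembly factors of complex I were detected, between 6.48 and 16.2 CPM per kb in KO2 and between 3.52 and 20.97 in KO1. Ndufaf1, a chaperone of the membrane-arm intermediate, was the highest on the exon union at 16.2 in KO2 and 20.97 in KO1, and Ndufaf4 followed at 13.0 and 16.5. Ndufaf8 stood at 7.42 and 3.52 and Ndufaf3 at 6.48 and 3.91. The highest pair was lower in KO2 and the lowest pair higher in KO2. GC content of the longest transcript was 46.3% for Ndufaf1, 39.5% for Ndufaf4, 55.4% for Ndufaf8 and 56.0% for Ndufaf3. After the GC correction described below, their log2 ratios of KO2 over KO1 were -0.21, 0.03, 0.67 and 0.28. Ndufaf2 stood at 7.54 and 7.91 on the exon union and at 33.1 and 34.8 on its principal transcript, and 65.6% of its exons lie opposite another gene model. The others, Ndufaf5, Ndufaf6 and Ndufaf7, stood between 7.22 and 12.3 in KO2 and between 7.92 and 13.7 in KO1.

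Complex II has only nuclear subunits and also serves in the citric acid cycle. Its membrane anchor Sdhd was the highest of the 4 at 118 CPM per kb in KO2 and 115 in KO1. The flavoprotein Sdha stood at 60.6 and 62.7, the iron-sulfur subunit Sdhb at 41.3 and 34.9, and the second anchor Sdhc at 36.2 and 32.8. Their log2 ratios of KO2 over KO1 lay between -0.05 and 0.24, and the median absolute log2 ratio, 0.096, was the smallest of the structural groups.

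All 9 members of complex III were detected. Uqcrb, a small subunit near the ubiquinone site, stood at 142 CPM per kb in KO2 and 192 in KO1, and the hinge protein Uqcrh at 119 and 135. Cyc1, the cytochrome c1 that hands electrons to cytochrome c, stood at 119 and 87.6. The Rieske iron-sulfur protein Uqcrfs1 stood at 82.8 and 87.1. The small subunit Uqcr10 stood at 148 and 87.6, and the core protein Uqcrc2 at 83.7 and 101. The other core protein, Uqcrc1, stood at 70.0 in KO2 and 48.0 in KO1 on the exon union, and at 175 and 120 on its principal transcript. Uqcrq, a small subunit that contacts cytochrome b, was the lowest at 40.6 in KO2 and 17.1 in KO1. Uqcr11, another small subunit, stood at 99.3 and 38.0. The group was the least even between the libraries, with a median absolute log2 ratio of 0.44.

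Cytochrome c was represented by its somatic gene Cycs and by Cyct, known as the form of testis germ cells. Cycs had 4743 counts in KO2 and 6083 in KO1, and Cyct had 494 and 637. Per kb, Cyct made up 35.1% of the pair in KO2 and 35.2% in KO1, a share of 35.2 ± 0.09%. The duplicates agreed closely on this split. In unscaled counts the Cyct share was 9.46 ± 0.03%, a figure that weighs the pair by length, with principal transcripts of 655 bases for Cyct and 3123 bases for Cycs.

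The promoters above belong to these genes and to the complex IV pair with the largest testis-type share. Cox6b1, the general form of a subunit on the cytochrome c side of complex IV, had 7987 counts in KO2 and 7632 in KO1. Its testis form Cox6b2 had 1198 and 919 counts, a share per kb of 8.75% in KO2 and 7.14% in KO1. On principal transcripts the share of Cox6b2 was 14.4% and 11.9%. Of 8 testis germ cell markers only Ldhc was detected, with 79 counts in KO2 and 59 in KO1, and the whole list summed to 1.501 CPM in KO2 and 1.13 CPM in KO1. The protamines Prm1 and Prm2, the transition protein gene Tnp1 and the acrosomal gene Acrv1 had 0 counts in both libraries, which allows up to 0.055 CPM in KO2 and 0.053 CPM in KO1 at 3 counts. Pgk2 had 2 counts in KO2 and 1 in KO1, Tnp2 had 1 and 2, and Odf1 had 0 and 2. Cyct and Cox6b2 were measured at 9.04 and 21.9 CPM in KO2 and at 11.2 and 16.2 CPM in KO1. The part of testis germ cell RNA in their levels was not tested. The other testis forms were low, with 37 and 32 counts for Cox8c and 38 and 50 for Cox7b2. In bulk RNA, a low level in every cell and a higher level in few cells cannot be told apart for any of these isoforms.

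**Figure D2:**
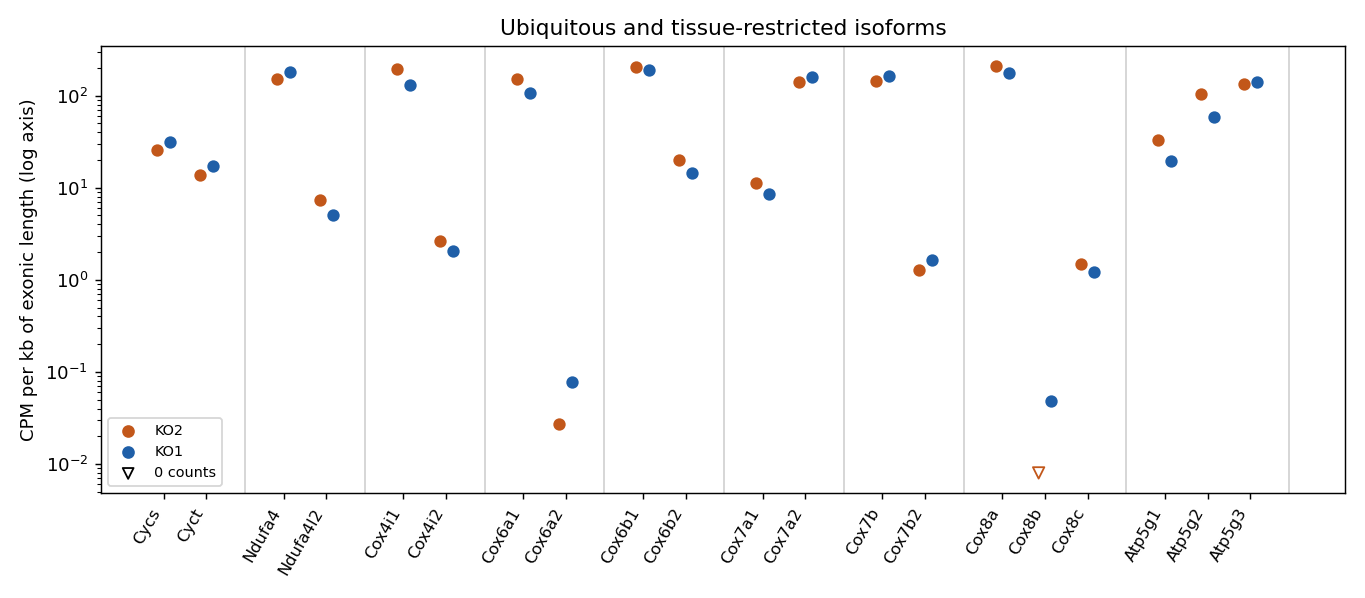
CPM per kb (log axis) of the members of 9 isoform families in KO2 (orange, left) and KO1 (blue, right); an open triangle marks 0 counts. Cyct lies 1.85-fold below Cycs in KO2 and 1.84-fold in KO1, Cox6b2 and Cox7a1 lie 10.4-fold or more below their general forms, and Cox6a2 and Cox8b are at or near 0.

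Among muscle and heart isoforms of complex IV, Cox7a1 was the only one detected. It had 330 counts in KO2 and 263 in KO1 beside 7211 and 8484 for the general form Cox7a2, a share per kb of 7.47% and 5.19%. Cox6a2 had 1 and 3 counts beside 5884 and 4264 for Cox6a1, and Cox8b had 0 and 1 beside 7053 and 6126 for Cox8a. In KO2 Cox8b was at least 1367-fold below Cox8a per kb, taking 3 counts as the limit. Of 18 skeletal muscle markers 7 were detected, and the list summed to 284 CPM in KO2 and 255 CPM in KO1, most of it from Mylpf, Ttn and Actn3. The contractile markers Acta1, with 14 and 118 counts, Tnnt3, with 11 and 111, and Myl1, with 0 and 69, were among 7 markers more than 2-fold lower in KO2 by the rule given with the library ratios below. These 7 are the markers that had been noticed in earlier results of these data and put on the list for it. The count is thus a description only, and none of the other 11 was called. Of the 18 markers, 14 held 50 or more counts in all, as a call required. Pvalb, with 0 counts in KO2 and 48 in KO1, and Tnni2, with 4 and 44, did not. Their counting intervals also lay wholly beyond 2-fold lower in KO2. That direction was called for 0.0768% of all genes. The log2 ratio of Cox7a1 was 0.38, and the part of muscle-like RNA in its level was not tested. Of 7 heart markers 3 were detected, summing to 15.4 CPM in KO2 and 10.3 CPM in KO1, and Nppa had 0 counts in KO2 and 1 in KO1. Of 4 brown fat markers only Cidea was detected, and Ucp1 had 16 and 25 counts.

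Isoforms that are known to respond to low oxygen were also minor. Cox4i2 had 113 counts in KO2 and 92 in KO1, against 16508 and 11401 for Cox4i1, and its share per kb was 1.45 ± 0.17%. Ndufa4l2 had 444 and 314 counts, against 11352 and 14103 for Ndufa4, now regarded as a complex IV subunit, and its share was 4.70% in KO2 and 2.73% in KO1. The X-linked Cox7b held 99.1% of its pair and Cox8a 99.3% of its family in the mean of both libraries.

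Apart from these minor isoforms, the structural genes of complex IV were among the most abundant members. Cox6b1 stood at 206 CPM per kb in KO2 and 190 in KO1, and Cox8a at 209 and 174. Cox5a, a matrix-side subunit, stood at 109 in KO2 and 135 in KO1. The regulatory subunit Cox4i1 stood at 195 and 129, and the small membrane subunit Cox7c at 187 and 166. Cox6a1 stood at 153 in KO2 and 107 in KO1, while the zinc-binding Cox5b stood at 52.6 and 46.5. Cox6c stood at 76.7 and 77.3 on the exon union and at 544 and 548 on its principal transcript, higher than any other complex IV subunit on that length. Cox7a2l, which joins complexes III and IV into supercomplexes, stood at 68.1 and 58.0. The group thus held 12 members at 46.5 CPM per kb or more in both libraries and 8 minor isoforms at 19.8 or less.

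Assembly factors of complex IV were lower, and 8 of 9 were detected. Cox14, which binds the newly made mitochondrial subunit 1, was the highest at 34.8 CPM per kb in KO2 and 24.2 in KO1. Cox11, a copper-insertion factor, stood at 15.5 and 19.2, and the heme a synthesis enzymes Cox15 and Cox10 at 12.1 and 10.3 in KO2 and at 10.8 and 6.95 in KO1. Cox18, which inserts subunit 2 into the membrane, stood at 7.84 and 5.92, and the copper-pathway protein Cox19 at 4.85 and 3.99. The copper chaperone Cox17 stood at 1.59 and 1.68 on the exon union, and at 20.7 and 21.8 on its short principal transcript. Cox20, a chaperone of mitochondrial subunit 2, had 297 and 445 counts, and 91.1% of its exons lie opposite Hnrnpu, which had 78773 and 100416. Cox16, also of subunit 2 assembly, had 161 counts in KO2 and 31 in KO1, and 56.8% of its exons overlap the gene model Gm20498 on the same strand, which had 12 and 9. The counting of reads shared by overlapping genes is not stated, so the levels of Cox20 and Cox16 are uncertain.

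The catalytic head of complex V held the most abundant members on the exon union. Atp5b, the beta subunit where ATP is made, had 106723 counts in KO2 and 108700 in KO1, or 461 and 452 CPM per kb. Its partner alpha, Atp5a1, stood at 395 and 347, and the central-stalk gamma subunit Atp5c1 at 158 and 176. The delta subunit Atp5d stood at 47.8 in KO2 and 22.4 in KO1, and the epsilon subunit Atp5e at 37.4 and 31.0, or 156 and 129 on its principal transcript. As background, the enzyme holds several alpha and beta subunits for each gamma, delta and epsilon subunit.

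The Fo part spans the membrane and its c-ring is encoded by Atp5g1, Atp5g2 and Atp5g3, whose mature proteins are identical. Atp5g3 stood at 133 CPM per kb in KO2 and 139 in KO1, Atp5g2 at 105 and 58.8, and Atp5g1 at 33.3 and 19.6. The share of Atp5g3 was therefore 49.0% in KO2 and 64.0% in KO1, and the families of complex IV varied less than this one between the libraries. The share of Atp5g1 depended on length, with an exon union of 4912 bases against 1675 for Atp5g2. It was 10.6 ± 2.33% per kb, 22.7 ± 4.75% in unscaled counts and 3.59 ± 0.77% on principal transcripts. The peripheral-stalk subunits Atp5h, Atp5f1, Atp5j and Atp5o stood at 106, 80.8, 47.0 and 51.2 in KO2 and at 118, 92.2, 57.7 and 43.2 in KO1. Atp5k, the e subunit, stood at 111 and 99.7. Atp5l, the g subunit, stood at 21.7 and 20.4 on the exon union and at 257 and 242 on its principal transcript. Atp5s was the lowest detected member of the group at 3.36 and 3.76. The first Atp5o identifier had 5512 and 4838 counts and the second, whose exons all overlap other genes on the same strand, had 0 in both libraries.

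The 2 libraries are replicates of 1 genotype, so a ratio of KO2 over KO1 compares libraries and has no replicate check. A gene was called different when the whole 95% counting interval of the ratio was outside 2-fold and both libraries together held 50 counts or more. The interval covers counting error only. Of 103 members with that count, 6 were called, against 1.06% of 15619 genes in the table. All 6 were higher in KO2, a direction called for 0.98% of all genes. The median log2 ratio was 0.13 over these members and 0.01 over all genes with that count, and the median absolute log2 ratio was 0.26 and 0.28.

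Cox16, with 161 counts in KO2 and 31 in KO1, differed most, with 5.33-fold more in KO2 (3.66 to 8.21). Its gene spans chr12:81359026-81485127 on the minus strand of build GRCm38. Uqcr11, with 3479 counts in KO2 and 1383 in KO1, was 2.62-fold higher (2.46 to 2.79). Ndufs7, with 1860 and 787, was 2.46-fold higher (2.26 to 2.67). The transcripts of Uqcr11 and Ndufs7 were GC-rich, at 59.8% and 59.6%. Uqcrq, with 4057 and 1777 counts, was 2.37-fold higher (2.24 to 2.51). Ndufb7, with 2065 and 919, was 2.34-fold higher (2.16 to 2.53), and Atp5d, with 5031 and 2457, was 2.13-fold higher (2.03 to 2.24). Uqcrq lies at chr11:53427922-53430831 on the minus strand and Ndufb7 at chr8:83566671-83571626 on the plus strand. The other 3, Atp5d, Ndufs7 and Uqcr11, are neighbours within chr10:80138632-80406830, a pattern chosen after their values were seen. The 14 other genes in that window with 50 or more counts were all higher in KO2, with a median log2 ratio of 0.70 before GC correction and 0.05 after it, and 1 of them was beyond 2-fold. Their median GC content was 59.0%, against 49.6% over all genes with that count.

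The ratio moved with the GC content of the transcript. Spearman's rho between the log2 ratio and GC content was 0.67 over the 103 members and 0.81 over 15603 genes, given as a description of this library pair with all points sharing its 2 libraries. After a loess correction for GC content, 2 members were still called, Cox16 with a log2 ratio of 2.81 (2.27 to 3.43) and Uqcrq with 1.23 (1.15 to 1.31), against 0.256% of 15603 genes. The members' rho after correction was -0.17, and their median log2 ratio was 0.08 against -0.004 over all genes. For Uqcr11 the log2 ratio was 1.39 before and 0.61 after correction, for Ndufs7 1.30 and 0.53, and for Atp5d 1.09 and 0.35. Complex III had a median log2 ratio of 0.44 before correction and -0.01 after it. Its median absolute log2 ratio was 0.33 after correction, and 0.10 with GC content taken from the principal transcript.

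**Figure D3:**
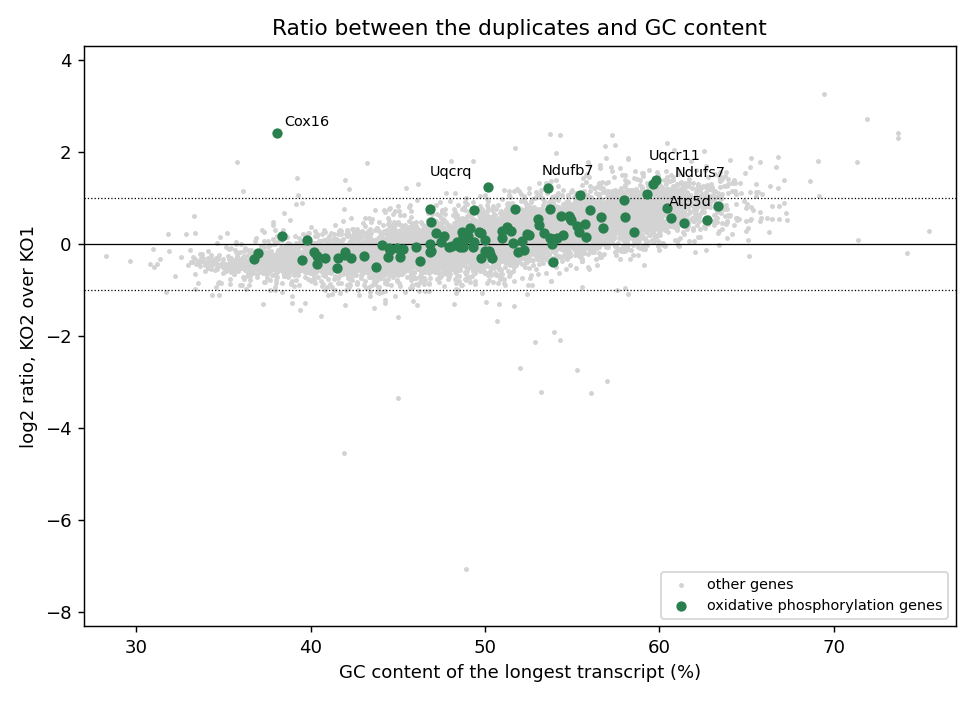
The log2 ratio of KO2 over KO1 against the GC content of the longest transcript (%), with the members in green, other genes with 50 or more counts in all in grey and dotted lines at 2-fold. Ratios of members and of all genes rise with GC content (rho 0.67 and 0.81), and Cox16, at 38.1% GC, has the highest ratio of the members.

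Among the 103 members with 50 or more counts in all, the corrected ratios that lay furthest above 0, after Cox16 and Uqcrq, were those of Ndufb7 at 0.96, Atp5g1 at 0.91 and Ndufa7 at 0.77. Those furthest below 0 were Atp5mpl at -0.67, Cyc1 at -0.44, Cox6a1 at -0.43, Cox8a at -0.42 and Atp5j at -0.33. Several of these depended on which transcript gave the GC content. With the principal transcript, chosen after seeing the data, Atp5mpl stood at -0.07, Cyc1 at 0.04, Cox6a1 at -0.18 and Atp5j at -0.72, while Cox8a stayed at -0.41. On the same basis Ndufb7 stood at 0.46 and Ndufa7 at 0.38, while Atp5g1 stayed at 0.94, Uqcrq at 1.26 and Cox16 at 2.83. For Atp5g1, Uqcrq, Cox16 and Cox8a the principal transcript has the same length and GC content as the longest one. The change of transcript could therefore not test their corrected ratios.

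**Figure D4:**
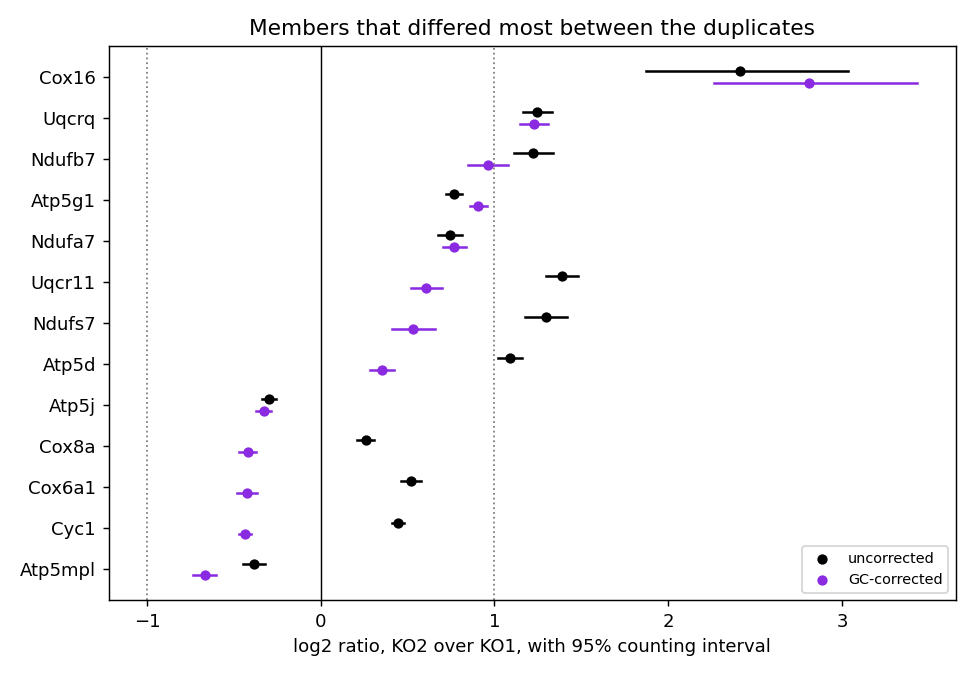
Log2 ratios of KO2 over KO1 with 95% counting intervals for the 6 called members and the 5 highest and 5 lowest GC-corrected ones, uncorrected in black and GC-corrected in purple; dotted lines mark 2-fold. The corrected values of Uqcr11, Ndufs7 and Atp5d fall inside 2-fold, while Cox16 and Uqcrq stay beyond it.

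Transcription factors and coactivators known to drive these genes were mostly present. Gabpa stood at 219 CPM in KO2 and 269 CPM in KO1, Yy1 at 128 and 150, and Nrf1 at 69.0 and 62.7. Tfam, which packages and transcribes mitochondrial DNA, stood at 70.6 and 85.8 CPM. Of the PGC-1 coactivators, Pprc1 stood at 241 and 170 CPM and Ppargc1b at 5.82 and 3.54 CPM, while Ppargc1a, the form of energy-demanding tissues, had 0 counts in KO2 and 1 in KO1. The orphan receptor gene Esrra had 629 counts in KO2 and 277 in KO1. Its log2 ratio was 1.24 (1.03 to 1.45), and 1.21 after GC correction. Of the 7 regulators with 50 or more counts in all, only Esrra was called beyond 2-fold, where 1.06% of all genes were.

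Of 39 assembly and partner genes outside the naming rule, 38 were detected and Pet117 had 0 counts in both libraries. None was beyond 2-fold in either direction, where 1.06% of all genes were, and their median log2 ratio was -0.05, against 0.01 over all genes. Lrpprc, which stabilises mitochondrial messenger RNAs, was the highest before scaling by length, at 252 CPM in KO2 and 286 CPM in KO1. Atpif1, the inhibitor of ATP synthase, stood at 119 and 102 CPM. Scaled by exonic length, Atpif1 was the highest, at a mean of 76.6 CPM per kb against 31.6 for Lrpprc. Surf1 and Sco1, needed for complex IV, stood at 23.8 and 46.3 CPM in KO2 and at 22.2 and 55.5 CPM in KO1. The complex III chaperone Bcs1l stood at 19.8 and 18.3 CPM.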

How the data were processed

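PolyA RNA was sequenced from the duplicate Ago1 KO libraries. The authors deposited 1 table of whole-number counts per gene; the labels name a TruSeq kit with a reverse-stranded protocol, and the submitters' processing notes name build GRCm38. The sources used here do not give the aligner, counter, strand setting or annotation release.

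Identifiers were matched to GENCODE M21 (55240 of 55421). Counts were scaled to CPM with TMM factors from edgeR 4.0.16 (1.004 for KO2, 0.996 for KO1), and divided by exonic length. Ratios of KO2 over KO1 used a prior count of 0.5 and exact conditional binomial 95% intervals. GC correction was a loess fit of span 0.3 on genes with 100 or more counts in all. Both steps were tested on simulated data. With 1 group there is no test and no p-value. Alternatives were other scalings (DESeq2 1.42.0), thresholds, lengths and corrections. Overlaps were found with bedtools 2.31.1 and copies with blastn 2.17.0. Intervals and floors cover counting error only.

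Members and lists were chosen with earlier results of these data known. Named genes are the 2 highest and 2 lowest per role, isoform families, X-linked members, called members, the 5 highest and 5 lowest corrected ratios, 8 regulators and Ago1; other members are named as examples chosen after their values were seen. A gene that this rule names is not reported here.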

Additional observations from a re-analysis of the deposited data

How the results depend on the processing

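The number of members detected was between 97 and 103 under every scaling, threshold and left-out library run, against 100. The number of members called different between the libraries was 6, and 14 at 1.5-fold, 1 at 3-fold, 2 after GC correction and 2 after GC correction on the principal transcript. Other scalings, filters on the summed count and the removal of members with a same-strand overlap gave 5 or 6. The median log2 ratio of members stayed above 0, between 0.046 and 0.138. The median level of structural subunits was 44.2 CPM per kb, and 66.8 on the longest transcript, 51.7 on exonic length less 150 bases and 78.1 on the principal transcript. It was between 39.6 and 48.8 with either library left out. Of 57 levels of role groups and isoform shares recomputed with another length or with none, 42 moved by more than the spread between libraries and 15 by less. The principal-transcript settings and the removal of overlapping members were chosen after seeing the data. No paired analysis was possible because there is just 1 group. Depth limits Cox16 most among the called members, since KO1 had 31 counts.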
